A study of Mus musculus with 13 samples.

Results

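Pax3, Pax7, Six2, Six4, Six5, Eya1 and Eya4 are 7 transcription regulators of families with members that act upstream in the muscle lineage. They were taken by name from the 24411 genes of the bulk table, and all 7 were in it. The first single-cell table held all 7, and the second held 6 of the 7, without a row for Pax3. The study profiled hindlimb muscle of wild type C57BL/6 mice aged 2 months, and the labels name no transgene, deletion or injury. Bulk RNA came from 11 Smart-seq2 libraries in 4 groups, and single cells from 2 droplet libraries of uninjured muscle. MuSC (2 libraries) were muscle stem cells, called quiescent in the labels, sorted fresh as CD31-, CD45-, Sca1-, VCAM1+ and ITGA7+. Fresh SMMC (3 libraries) were smooth-muscle and mesenchymal-like cells, sorted the same way but VCAM1-. Proliferating SMMC (3 libraries) were these cells after 3 days in culture, and differentiating SMMC (3 libraries) were cultured cells allowed to differentiate. The labels do not say that libraries came from separate animals or how many animals were pooled, and the p-values therefore speak only of how far these libraries scatter, which may be technical scatter.

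PAX3 and PAX7 are paired-domain DNA-binding proteins that specify muscle progenitors, and PAX7 marks the satellite cells of adult muscle. SIX2, SIX4 and SIX5 belong to the sine oculis family, whose proteins bind DNA through a homeodomain and recruit EYA proteins, which are coactivators with phosphatase activity and do not bind DNA themselves. In the embryo sine oculis family and EYA proteins act upstream of Pax3 and of the myogenic regulators Myf5, Myod1 and Myog, and in adult satellite cells they take part in activation and repair.

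In GENCODE vM21 (GRCm38, the mm10 build) the genes lie on 6 chromosomes, and 6 of the 7 are on the minus strand. Pax3 is at chr1:78101267-78197134 and Eya1 at chr1:14168954-14310235, both on the minus strand. Pax7 (chr4:139737062-139833528), Eya4 (chr10:23102963-23350786), Six4 (chr12:73099609-73113456) and Six2 (chr17:85684277-85688274) are on the minus strand too. Six5 is on the plus strand at chr7:19094594-19098549. Eya1 overlaps the small RNA gene Gm22616 on its other strand and the gene Gm37444 on its own. Eya4 overlaps the small nuclear RNA gene Gm24655 on its own strand. Strand cannot part genes on the same strand, and whether the authors' quantification used it is not stated in the labels. Reads of these overlapping genes could therefore not be separated.

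RefSeq promoter windows (GRCm38.p6) were matched for 5 of the 7 genes: Pax7, Six2, Six4, Six5 and Eya4. The exon-free bases of windows upstream of the RefSeq start are printed for Six2, Six4 and Six5. These were chosen because Six2 and Six5 had their highest group means in fresh SMMC and Six4 did not. Each runs 5′ to 3′ on the gene's own strand, and capitals mark a GC box (GGGCGG, or its reverse complement) or a CCAAT box on either strand. The coordinates are chr7:19094294-19094543 (plus strand) for Six5, chr12:73113457-73113675 (minus strand) for Six4 and chr17:85688275-85688504 (minus strand) for Six2. For Six5 the RefSeq start lies upstream of the GENCODE start given above, so its bases end short of that one. For Six4 and Six2 the last 31 and 20 bases before the RefSeq start are annotated exon and are not printed. Their printed bases therefore end just before the GENCODE start, while positions below count from the RefSeq start.
Six5: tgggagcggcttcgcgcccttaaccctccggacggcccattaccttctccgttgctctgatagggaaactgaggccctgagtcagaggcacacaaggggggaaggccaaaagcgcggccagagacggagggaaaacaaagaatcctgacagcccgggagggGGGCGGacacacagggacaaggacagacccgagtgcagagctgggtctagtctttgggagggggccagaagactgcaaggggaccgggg
Six4: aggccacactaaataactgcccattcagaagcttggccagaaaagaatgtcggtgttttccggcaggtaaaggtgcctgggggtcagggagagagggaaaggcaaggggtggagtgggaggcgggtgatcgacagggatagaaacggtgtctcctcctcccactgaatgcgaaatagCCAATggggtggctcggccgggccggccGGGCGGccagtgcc
Six2: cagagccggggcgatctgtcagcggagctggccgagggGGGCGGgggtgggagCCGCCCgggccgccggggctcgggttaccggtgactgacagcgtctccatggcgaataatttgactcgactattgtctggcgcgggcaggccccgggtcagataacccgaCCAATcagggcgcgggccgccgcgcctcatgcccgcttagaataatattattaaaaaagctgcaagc
The full 250-base window of Six5 held 1 GC box, at position -89 from the RefSeq start. The Six4 window held a CCAAT box at -73 and a GC box at -45, and the Six2 window a CCAAT box at -87 and GC boxes at -212 and -197. Among 32851 windows of 250 bases, 32.7% held a GC box and 33.8% a CCAAT box. No match to the E-box CANNTG, present in 66.2% of windows, or to the MEF3 core TCAGGTT, present in 3.49%, was found in these 3 windows, searched on both strands. The MEF3 core is the element that sine oculis family proteins bind in muscle genes. A second RefSeq window of Six4, starting further inside the gene, held 1 match at -97. Of that window's 250 bases, 211 are annotated Six4 exon, and the match lies among them, downstream of the GENCODE start.

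Levels in the bulk libraries are FPKM, a fragment count divided by transcript length and by the library's total, so genes can be compared per length. The files keep no fragment counts, the depth is unknown, and precision was judged from the spread between libraries. Libraries of 1 group had Spearman rho values of 0.949 to 0.981 across the 13233 genes tested. Vcam1, the gene of the antigen that separated the sorts, was at 119 ± 33.8 FPKM in MuSC (SD, n = 2) and was lower in fresh SMMC, at 22.3 ± 3.36 (SD, n = 3). Of 15 muscle stem cell markers, with the 7 genes left out, 14 were lower in fresh SMMC than in MuSC and Chodl was higher (limma adjusted p under 0.05). Their summed level was 29920 to 42140 FPKM in MuSC, most of it Sdc4, 1064 to 1572 in fresh SMMC and 2329 to 3057 in the cultures, where Calcr was listed at 0 in all 3 differentiating libraries. Markers of tenocytes, the cells of tendon, were higher in fresh SMMC than in MuSC for 10 of 10, with sums of 9116 to 18610 FPKM against 13.3 to 22.9, and were at 7.96 to 44.0 in the cultures. Pericyte markers were higher in fresh SMMC for 8 of 8, with sums of 1380 to 3549 FPKM against 26.01 to 31.1 in MuSC, and Schwann cell markers for 8 of 8, with 277 to 467 against 6.18 to 7.54. Fibro-adipogenic progenitor (8 of 10, sums of 2778 to 4891 FPKM against 706 to 829) and vascular smooth muscle markers (6 of 7) were higher in fresh SMMC too, the other 2 and 1 being lower. Endothelial markers were higher for 6 of 7 tested, with sums of 212 to 345 FPKM against 28.2 to 41.05 in MuSC, and macrophage and dendritic markers for 3 of 5 tested, with 112 to 521 against 4.49 to 6.72. In bulk RNA, fewer cells of a type and less RNA per cell cannot be told apart.

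**Figure D1:**
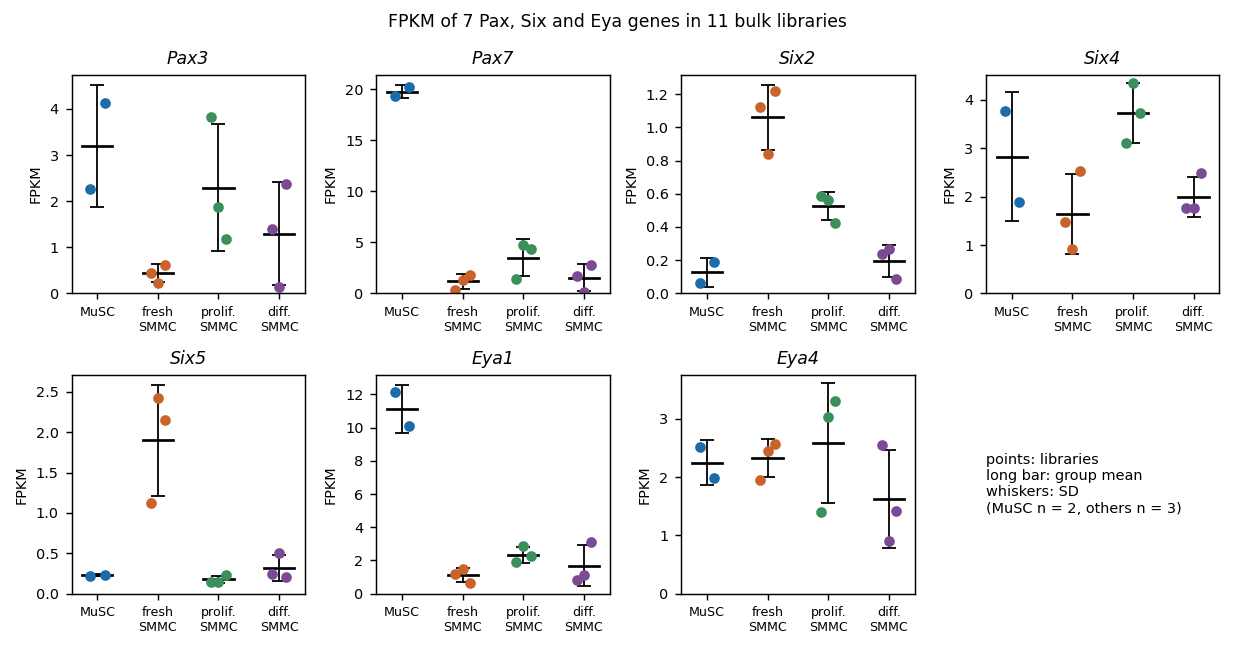
FPKM (linear axis) of each of the 7 genes in MuSC and in fresh, proliferating and differentiating SMMC; points are libraries, long bars group means and whiskers the SD. Pax7 and Eya1 are highest in both MuSC libraries, Six2 and Six5 in the 3 fresh SMMC libraries, and Eya4 overlaps between all 4 groups.

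Pax7 was far higher in MuSC than in any SMMC group. Its level was 19.3 and 20.3 FPKM in the MuSC libraries and at 0.367, 1.32 and 1.83 in fresh SMMC. The proliferating libraries had 1.42, 4.74 and 4.31 FPKM, and the differentiating ones 1.66, 0.131 and 2.78. Both MuSC libraries lay above all 9 SMMC libraries, while the 3 SMMC groups overlapped with one another. The difference between fresh SMMC and MuSC was -3.32 on the log2(FPKM + 1) scale (SE 0.50, 10.0-fold on that scale, limma adjusted p = 0.0001128). Against MuSC, proliferating SMMC differed by -2.31 (limma adjusted p = 0.001272) and differentiating SMMC by -3.21 (limma adjusted p = 9.631e-05). The order of the group means was MuSC, proliferating, differentiating and fresh SMMC. Between proliferating and fresh SMMC the difference was 1.01 (95% interval 0.03 to 1.99, limma adjusted p = 0.0627), so these neighbours did not pass the test. The interval between differentiating and proliferating SMMC ran from -1.88 to 0.08 (limma adjusted p = 0.134). The muscle stem cell markers given above moved the same way between MuSC and fresh SMMC, and their part in the Pax7 difference was not tested.

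Pax3, the paralogue that governs migrating limb progenitors in the embryo and is kept by only some adult satellite cells, was lower than Pax7 in MuSC. MuSC libraries had 2.25 and 4.14 FPKM of Pax3, and fresh SMMC 0.450, 0.230 and 0.626. Proliferating SMMC had 3.83, 1.88 and 1.17 FPKM, and differentiating SMMC 1.40, 0.129 and 2.37. All 3 fresh libraries lay below the MuSC and the proliferating libraries, and the differentiating libraries, from 0.129 to 2.37, overlapped with all 3 other groups. The difference between fresh SMMC and MuSC was -1.52 (SE 0.43, limma adjusted p = 0.009118). It was no longer called without MuSC replicate 2 (limma adjusted p = 0.104). Pax3 rose from fresh to proliferating SMMC by 1.13 (SE 0.39, limma adjusted p = 0.02094). That call was lost without fresh replicate 2 (0.07071), without proliferating replicate 1 (0.09149) or with no filter on low genes (0.06446), all limma adjusted p. Between proliferating SMMC and MuSC the difference was -0.39 (95% interval -1.34 to 0.55, limma adjusted p = 0.4463).

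The balance of the Pax genes was also compared. Pax7 made up 86.3% ± 4.61 (SD, n = 2) of the summed Pax3 and Pax7 FPKM in MuSC. In fresh SMMC its share was 68.2% ± 20.8 (SD, n = 3), in proliferating SMMC 59.1% ± 28.0 (SD, n = 3) and in differentiating SMMC 52.9% ± 2.11 (SD, n = 3). The share ranged from 83.0% to 89.6% in MuSC and reached 85.2% in fresh SMMC, so these groups overlapped. The log2 ratio of Pax3 over Pax7 was also taken, each with 1 FPKM added. It was -2.64 to -2.05 in MuSC and -1.29 to 1.00 in the 9 SMMC libraries, without overlap. The width of that gap depended on the added value. With 0.1 FPKM added, MuSC replicate 2 was at -2.264 and fresh SMMC replicate 2 at -2.106. The shares, with nothing added, overlapped, so the gap alone does not show a changed balance. The sum itself was 23.0 FPKM in MuSC and 1.61 to 5.79 as SMMC group means, so SMMC shares rest on low values.

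Six2, known for keeping kidney progenitors undifferentiated and expressed in embryonic limb tendons, was lowest in MuSC and highest in fresh SMMC. MuSC libraries held 0.0647 and 0.187 FPKM, and fresh SMMC 1.12, 0.838 and 1.22. The proliferating libraries had 0.587, 0.563 and 0.427 FPKM, and the differentiating ones 0.236, 0.269 and 0.0869. The fresh libraries lay above all others and the proliferating libraries above both remaining groups, which overlapped. Six2 was higher in fresh SMMC than in MuSC by 0.87 (SE 0.17, limma adjusted p = 0.0007311). It fell from fresh to proliferating SMMC by 0.43 (SE 0.15, limma adjusted p = 0.02288) and was lower in differentiating than in fresh SMMC by a difference of -0.78 (limma adjusted p = 0.0005832). Proliferating SMMC exceeded MuSC by 0.44 (limma adjusted p = 0.03453), which did not hold under 6 alternatives (highest limma adjusted p = 0.2127). The fresh to proliferating call was lost with a pseudocount of 0.1 (0.07303), without proliferating replicate 3 (0.07984) and with only these 2 groups fitted (0.07071), all limma adjusted p. With quantile normalization of the libraries the fresh to proliferating difference changed sign to 0.18 (limma adjusted p = 0.3365), and those against MuSC (0.1141) and to differentiating SMMC (0.0594) were not called. The summed tenocyte markers were also highest in fresh SMMC, although Scx, one of them, was higher in differentiating (7.13 FPKM) than in fresh SMMC (2.31). In proliferating SMMC those markers summed to 7.96 to 22.5 FPKM, against 13.3 to 22.9 in MuSC. Of the 10 markers, 1 was called higher there than in MuSC and 1 lower. Six2 was above MuSC in all 3 proliferating libraries. The part of tenocyte-like cells in the Six2 level of fresh or proliferating SMMC was not tested.

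Six5, which lies beside the myotonic dystrophy kinase gene Dmpk, was highest in fresh SMMC like Six2, but had its lowest group mean in proliferating SMMC. Its level was 0.225 and 0.236 FPKM in MuSC, and 1.12, 2.42 and 2.16 in fresh SMMC. Proliferating SMMC had 0.150, 0.148 and 0.230 FPKM, and differentiating SMMC 0.239, 0.508 and 0.210. Every fresh library exceeded every other library, and the 3 remaining groups overlapped. Six5 was higher in fresh SMMC than in MuSC by 1.21 (SE 0.22, limma adjusted p = 0.0003938), fell from fresh to proliferating SMMC by 1.27 (SE 0.19, limma adjusted p = 7.805e-05) and was lower in differentiating than in fresh SMMC (-1.11, limma adjusted p = 0.0002585). These 3 calls were kept under the 18 alternatives run for each. The summed tenocyte, pericyte, Schwann cell, fibro-adipogenic progenitor, endothelial, and macrophage and dendritic markers given above were also highest in fresh SMMC, and their part in the Six5 level was not tested. Proliferating SMMC and MuSC differed by -0.07 (95% interval -0.53 to 0.40, limma adjusted p = 0.8099).

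Six4, a regulator of embryonic limb muscle, followed another order. It was at 3.77 and 1.89 FPKM in MuSC, 1.48, 0.916 and 2.54 in fresh SMMC, 3.11, 4.35 and 3.74 in proliferating SMMC and 1.77, 1.76 and 2.48 in differentiating SMMC. The proliferating libraries lay above all fresh and differentiating ones, and the MuSC libraries overlapped with the other groups. Six4 rose from fresh to proliferating SMMC by 0.88 (SE 0.27, limma adjusted p = 0.01186), a call lost without fresh replicate 2 (limma adjusted p = 0.06182). From proliferating to differentiating SMMC the difference was -0.66 (95% interval -1.24 to -0.07, limma adjusted p = 0.07141), with no overlap between the libraries. Between fresh SMMC and MuSC it was -0.53 (95% interval -1.19 to 0.12, limma adjusted p = 0.1465). That value became -0.98 (limma adjusted p = 0.009675) with TMM scaling and -1.38 (limma adjusted p = 0.001134) with quantile normalization.

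Eya1, an EYA coactivator of fast muscle fibres, had the pattern of Pax7. MuSC libraries had 12.2 and 10.1 FPKM and fresh SMMC 1.21, 1.46 and 0.658. Proliferating SMMC had 1.90, 2.85 and 2.25 FPKM, and differentiating SMMC 0.811, 1.14 and 3.13. Both MuSC libraries exceeded the 9 SMMC libraries by a wide gap, and the proliferating libraries lay above the fresh ones. Eya1 was lower than in MuSC in fresh SMMC (-2.54, SE 0.33, limma adjusted p = 3.421e-05), proliferating SMMC (-1.87, limma adjusted p = 0.0002656) and differentiating SMMC (-2.26, limma adjusted p = 5.432e-05). These 3 calls, like the 3 of Pax7 against MuSC, were kept under the 19 alternatives run for each. Between proliferating and fresh SMMC the difference was 0.67 (95% interval 0.02 to 1.32, limma adjusted p = 0.06153).

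Eya4, a paralogue known for its role in hearing and heart muscle, passed the test in none of the 6 comparisons. MuSC libraries had 2.52 and 1.98 FPKM, fresh SMMC 1.96, 2.45 and 2.58, proliferating SMMC 1.40, 3.03 and 3.31, and differentiating SMMC 2.56, 0.904 and 1.41. All 4 groups overlapped. The difference between fresh SMMC and MuSC was 0.03, with a 95% interval of -0.65 to 0.71 (limma adjusted p = 0.9347). With quantile normalization it was -0.79 (limma adjusted p = 0.02334). The log2 ratio of Eya1 over Eya4, each with 1 FPKM added, averaged 1.90 in MuSC and -0.67 in fresh SMMC. The lowest MuSC ratio, 1.90, lay above the highest of the 9 SMMC ratios, 0.77.

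**Figure D2:**
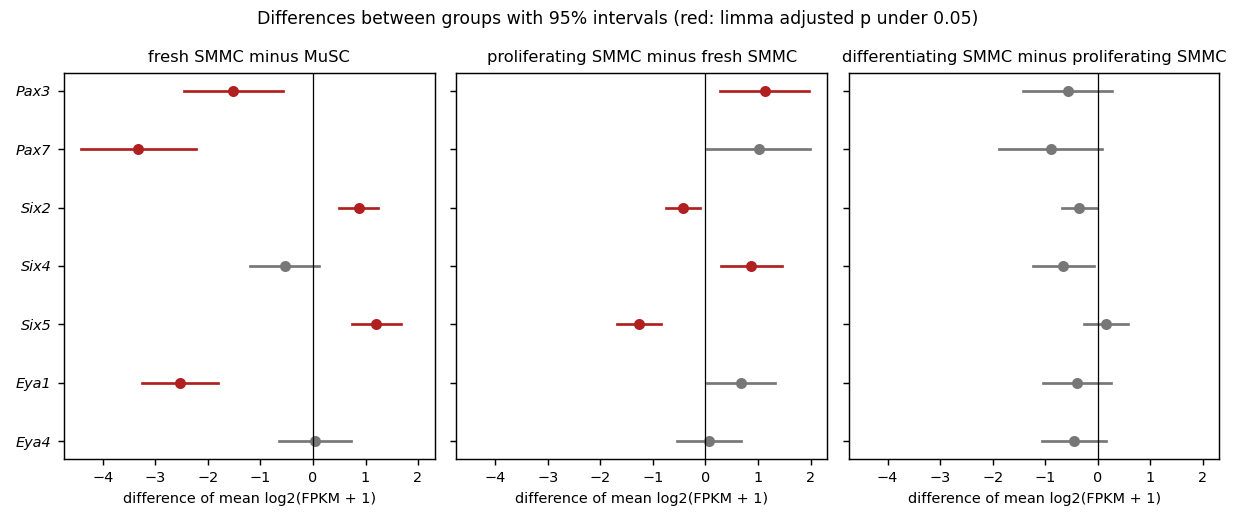
Difference of the mean log2(FPKM + 1) with its 95% interval for the 7 genes in 3 comparisons; red marks a limma adjusted p under 0.05. In fresh SMMC minus MuSC 5 genes are red, in proliferating minus fresh SMMC 4, and in differentiating minus proliferating SMMC 0.

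Read by comparison, the fresh SMMC and MuSC libraries differed for 5 of the 7 genes, 2 higher and 3 lower in fresh SMMC, where 59.7% of all genes tested were called, 41.7% higher and 18.0% lower. From fresh to proliferating SMMC 4 genes were called, 2 in each direction, where 68.5% of all genes were (33.1% higher, 35.4% lower), and without fresh replicate 2 the count was 2. From proliferating to differentiating SMMC limma called 0 of the 7, where 40.5% of all genes were called (20.9% higher, 19.6% lower), and 2 (Six2 and Six4) had an unadjusted p under 0.05. The count there was 1 without fresh replicate 3, 1 without proliferating replicate 1 and 2 without differentiating replicate 3. Differentiating SMMC were lower than fresh SMMC for 2 genes (68.0% of all genes called, 34.7% higher and 33.3% lower), and for 1 without either fresh replicate 1 or fresh replicate 3, where Six2 no longer passed the filter on low values and 6 of the 7 genes were tested. Against MuSC, 3 genes were called in proliferating SMMC, 1 higher and 2 lower, where 68.3% of all genes were called (42.7% higher, 25.7% lower). In differentiating SMMC 2 were lower than in MuSC, where 71.1% of all genes were called (45.6% higher, 25.5% lower). The share called among the 7 genes was thus at or below that of all genes in 5 of the 6 comparisons, and above it between fresh SMMC and MuSC. These comparisons share groups and are not independent of one another.

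Scaling moved the centre of the comparisons with MuSC. The median log2 difference of all genes between fresh SMMC and MuSC was 0.45 as deposited, 0.04 with TMM scaling and -0.04 with quantile normalization. Of the genes called there, 69.8% were higher in fresh SMMC as deposited, 51.3% with TMM scaling and 48.1% with quantile normalization. For proliferating SMMC against MuSC the higher share was 62.4% as deposited and 49.3% with TMM scaling, and for differentiating SMMC 64.1% and 51.5%. With TMM scaling Pax7 differed between fresh SMMC and MuSC by -3.90, Eya1 by -3.08, Pax3 by -1.98, Six2 by 0.76 and Six5 by 1.04, and all 5 were still called. Differentiating SMMC against MuSC had 5 of the 7 genes called with TMM scaling, with Pax3, Six4 and Eya4 added to Pax7 and Eya1.

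The gene with the largest share of the summed Eya level differed between groups. In MuSC Eya1 held 73.8% ± 2.82 of the summed Eya FPKM (SD, n = 2), and in fresh SMMC 9.64% ± 4.14 (SD, n = 3). Eya2 held 44.4% ± 5.90 in fresh SMMC, where it stood at 5.20 ± 0.568 FPKM, against 0.0870 ± 0.0408 in MuSC and 0.107 ± 0.0157 in proliferating SMMC. Eya3, a broadly expressed member, held 72.2% ± 3.06 in proliferating and 76.7% ± 7.14 in differentiating SMMC. Eya3 rose from 3.12 ± 1.31 FPKM in fresh to 13.0 ± 3.17 in proliferating SMMC, by 1.78 (limma adjusted p = 7.094e-05). The share of Eya4 was between 11.1% and 19.8% as group means. The summed Eya level was 11.8 to 18.0 FPKM as group means. Eya2 and Eya3 are given here in full because they complete the family, a choice made after their values were seen.

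**Figure D3:**
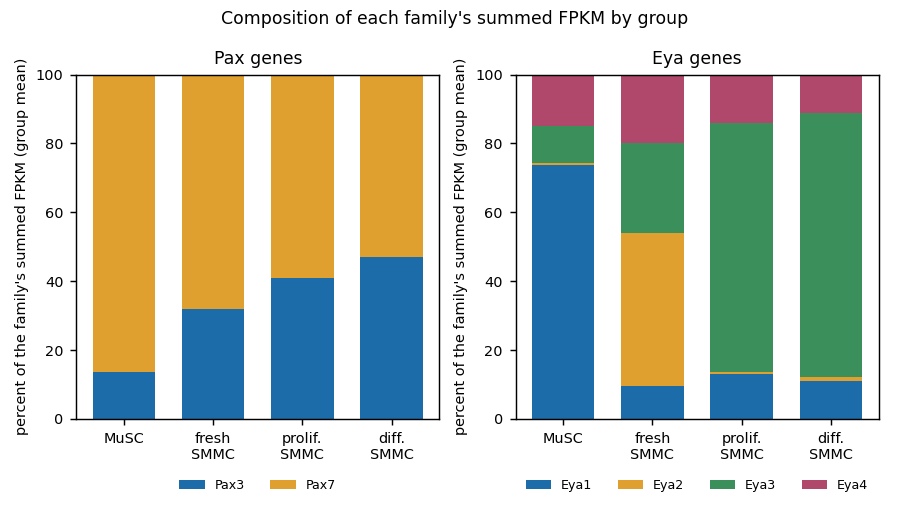
Mean percent of the Pax3 and Pax7 sum and of the Eya family's summed FPKM held by each gene in MuSC and in fresh, proliferating and differentiating SMMC (bars stack to 100). The largest Eya share is that of Eya1 in MuSC (73.8%), Eya2 in fresh SMMC (44.4%) and Eya3 in proliferating SMMC (72.2%). Pax7 holds 86.3% of the Pax sum in MuSC.

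A list of 32 other genes of this network was described beside the 7, namely other genes of the sine oculis, Eya, Dach and Pax families and factors that act with or after them in muscle. Of these, 20 passed the filter on low values. Between fresh SMMC and MuSC 6 were higher and 9 lower, with a median log2 difference of 0.01 against 0.45 over all genes tested, of which 41.7% were called higher and 18.0% lower. The 3 lower genes with the smallest adjusted p were Cxcr4, a chemokine receptor of migrating progenitors, Myf5, a myogenic regulator and target of PAX3 and PAX7, and Dmrt2, a regulator upstream of Myf5. The Myf5 level was 1943 ± 953 FPKM in MuSC and 6.07 ± 2.81 in fresh SMMC (limma adjusted p = 6.516e-07). Cxcr4 was at 0.165 against 19.8 FPKM and Dmrt2 at 0.696 against 24.8. The 3 higher genes with the smallest adjusted p were Eya2, Meox2 (77.9 against 0.0101 FPKM) and Meox1 (18.1 against 0.0646), the MEOX proteins being homeodomain factors of the somite and limb muscle.

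From fresh to proliferating SMMC 12 of the 20 rose and 5 fell, with a median of 1.36 against -0.06 over all genes, of which 33.1% rose and 35.4% fell. Pitx3, a homeodomain factor of myoblasts, rose from 0.0907 ± 0.0597 to 22.7 ± 1.77 FPKM. Myod1, the myogenic determination factor, rose from 72.3 ± 24.1 to 1069 ± 45.8 FPKM (limma adjusted p = 1.173e-07). Eya2, Meox2 and the myogenic repressor Msc were the 3 with the smallest adjusted p that fell. Six2 and Six5 also fell between these groups, and Pax3 and Six4 also rose. With such shares of all genes called, a shared direction is common, and links between these genes were not tested. The calls of Six2, Pax3 and Six4 were each lost under some alternatives, as given above. From proliferating to differentiating SMMC 4 rose and 6 fell, with a median of 0.06 against 0.00 over all genes, of which 20.9% rose and 19.6% fell. Myf6, a regulator of late differentiation, rose from 0.871 ± 0.279 to 18.6 ± 5.97 FPKM, and Itm2a rose too. Pitx3, Myod1 and Tbx1 fell, Tbx1 from 5.55 ± 0.933 to 2.57 ± 1.07 FPKM, which was not called with a pseudocount of 0.1 (limma adjusted p = 0.09519).

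Likeness over the 11 libraries was measured by Pearson's r on log2(FPKM + 1) against 9606 genes that averaged 5 FPKM or more in some group, as a description. The points share their groups, so r mostly repeats the group means. Pax7 was most like Fgfr4 (r = 0.971), a growth factor receptor of satellite cells, Myf5 (0.963) and Ddx42 (0.962). For Eya1 the closest were Polr3f (0.967) and Rdh13 (0.965), and for Six2 Bambi (0.953), Sfrp2 (0.952) and Hdac7 (0.951). Six5 was closest to Ifi27l2a (0.996), Dtx3 (0.989) and Kalrn (0.988), and Six4 to Mettl13 (0.951), Ifrd2 (0.901) and Itfg2 (0.900). Eya4 reached 0.871 at most, with Unk, followed by Morc2a (0.839) and Stt3b (0.827). Pax3 reached 0.816, with Angel2, followed by Mettl3 (0.809) and Metap2 (0.800). Among the 7 genes the closest pairs were Pax7 and Eya1 (r = 0.91) and Six2 and Six5 (0.753), and the most opposed were Pax3 and Six5 (-0.704).

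The droplet libraries showed which cells of uninjured muscle held these transcripts. The first library had 6144 cells and 19353328 UMIs (unique molecules), with a median of 2516 per cell, and the second 6297 cells and 15507938 UMIs, with a median of 2027. The libraries shared 53 barcodes. Clustering without the 7 genes and the network list gave 28 clusters, of which 24 were named from their markers in 12 classes. The muscle stem cell-like class held 960 cells (382 and 578 in the libraries), led by 9 of its 15 markers, Myf5, Myod1 and Des among them. The tenocyte-like class held 818 cells (313 and 505), led by all 10 tenocyte markers. With 2 libraries of a single group there is no test between classes, and the intervals given are exact and cover counting error only.

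Pax7 transcripts lay mostly in muscle stem cell-like cells, which held 152 of its 161 UMIs (94.4%) and made up 7.75% of all cells. They held 97.5% in the first library and 85.4% in the second, where endothelial-like cells held 4 of 41 UMIs. The level in muscle stem cell-like cells was 52.4 counts per 1000000 UMIs of the class (CPM, 95% interval 44.4 to 61.5). A Pax7 UMI was found in 11.2% of these cells (median 2817 UMIs), against 1 of 1757 B cell-like cells (0.0569%, median 2128 UMIs), the class used for comparison. Thinned to 1000 UMIs a cell, which left out 513 cells in all, the share was 4.87% of 945 cells. The libraries differed: the first had 117 UMIs, or 86.5 CPM, with a UMI in 80 of 382 cells, and the second 35 UMIs, or 22.7 CPM, in 28 of 578 cells. That ratio was 3.82 (95% interval 2.60 to 5.74), while the same ratio was 1.02 for Eya1 in these cells. The 15 muscle stem cell markers had ratios of 0.534 to 3.81, with a median of 1.17, and 9 were higher in the first library.

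Eya1 was also highest in muscle stem cell-like cells, at 30.3 CPM in the first and 29.8 in the second library (41 and 46 UMIs). These cells held 44.2% of its 197 UMIs. Apart from the fibre-like class, where 1 UMI in 23 cells gave 14.3 CPM, B cell-like cells followed at 10.3 CPM (95% interval 7.39 to 13.97) and endothelial-like cells at 5.48 (3.79 to 7.66), against 0.666 (0.137 to 1.95) in T and NK cell-like cells. The 2 larger B cell-like clusters had 8.38 and 13.5 CPM. The class had 36 Eya1 UMIs in 1466 cells of the first library and 5 in 291 cells of the second. It leaves out a cluster of 1133 cells led by the B cell markers Cd79a and Cd79b only, which stayed unnamed. All unnamed clusters together held 10 Eya1 UMIs. The share of cells with an Eya1 UMI was 7.50% in muscle stem cell-like cells, 2.28% in B cell-like cells and 0.191% in T and NK cell-like cells (median 2648 UMIs). Pax3, read in the first library only, had 17 of its 21 UMIs in 12 of 382 muscle stem cell-like cells, or 12.6 CPM (95% interval 7.32 to 20.1). Fibro-adipogenic progenitor-like cells held 3 Pax3 UMIs and neutrophil-like cells 1. No Pax3 UMI was seen in 1466 B cell-like cells, which allows a share of up to 0.205%.

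Six2 was found mainly in tenocyte-like cells, which held 47 of its 58 UMIs (81.0%) and made up 6.60% of all cells. Its level was 13.1 CPM in the first library (20 UMIs) and 14.1 in the second (27 UMIs), a ratio of 0.928 (95% interval 0.494 to 1.72). Muscle stem cell-like cells had 2.42 CPM (95% interval 0.971 to 4.98). A Six2 UMI was seen in 5.50% of tenocyte-like cells (median 3938 UMIs) and in 0 of 1757 B cell-like cells, which allows a share of up to 0.171%. Thinned to 1000 UMIs a cell the tenocyte-like share was 0.995% of 804 cells, from 8 UMIs. Eya2 was highest in the same class, at 31.5 and 32.5 CPM in the libraries, followed by fibro-adipogenic progenitor-like cells at 9.83. Cells with both a Six2 and an Eya2 UMI numbered 8 of 313 and 5 of 505 among the tenocyte-like cells.

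The other 3 genes were too sparse to order classes firmly. Six4 had 69 UMIs in all, at 5.53 CPM in tenocyte-like (95% interval 3.33 to 8.64), 4.49 in muscle stem cell-like (2.39 to 7.67) and 3.05 in fibro-adipogenic progenitor-like cells (1.91 to 4.61). These intervals overlap, and endothelial-like cells lay lower at 0.483 (0.0997 to 1.41). Six5 had 47 UMIs, of which 16 were in fibro-adipogenic progenitor-like cells (2.21 CPM, 95% interval 1.27 to 3.60) and 12 in endothelial-like cells, which made up 25.5% of its UMIs and 25.6% of all cells. Its highest level, 12.2 CPM in Schwann-like cells, came from 3 UMIs (95% interval 2.52 to 35.7). Eya4 had 30 UMIs, at 2.33 CPM in tenocyte-like, 2.07 in muscle stem cell-like and 1.66 in fibro-adipogenic progenitor-like cells, all within each other's intervals.

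**Figure D4:**
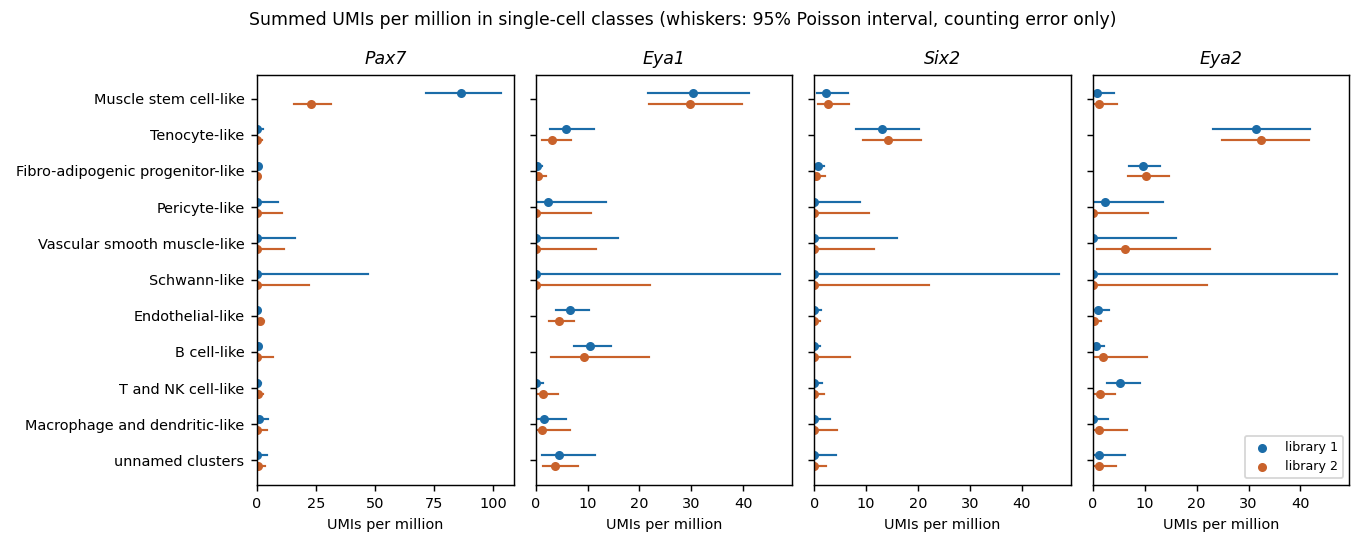
CPM (UMIs per 1000000 UMIs of each class, linear axis) for Pax7, Eya1, Six2 and Eya2 in the 2 droplet libraries, with exact 95% Poisson intervals that cover counting error only; the neutrophil-like and fibre-like classes are too small to plot. Pax7 peaks in muscle stem cell-like cells at 86.5 and 22.7, Eya1 there at 30.3 and 29.8, and Six2 in tenocyte-like cells at 13.1 and 14.1.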

How the data were processed

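The authors deposited 1 FPKM value per gene and library for the bulk samples. For single cells the deposited tables hold whole UMI counts. Upstream tools, per the submitters' processing notes, were Cell Ranger (2.1.0, 2.2.0) and Seurat (2.2, 2.3.4), and also StringTie, HISAT2 2.1.0, STAR 2.5.1b and SAMtools 1.3.1, on build mm10. For annotation and strand handling, nothing is given in the sources used here. A further 4 columns of the bulk data matched no sample and were not used. The 13233 genes reaching 1 FPKM in 2 or more libraries, all 7 described here among them, were tested with limma 3.58.1 (eBayes with trend, R 4.3.3) on log2(FPKM + 1). All 11 libraries entered 1 fit with 7 residual degrees of freedom, two-sided, with Benjamini-Hochberg adjustment over all genes and a threshold of 0.05. Fold changes on this scale understate those of low genes. The test was checked on simulated data. Low FPKM values showed no common step that would give back read counts (most common bin 0.936% of 1817 genes).

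Cells were clustered with scanpy 1.11.5 (2000 variable genes, 30 components, Leiden resolution 1), leaving out the 7 genes and the network list. A filter of at least 200 genes and at most 20% mitochondrial UMIs removed 0 cells. The doublet caller marked 52 cells (0.846%) in the first library and 4 (0.0635%) in the second, where it cannot be said to have worked. In all, 12385 cells were kept, 1307 of them in unnamed clusters. A cluster was named from at least 3 leading markers of 1 list, and 1 macrophage and dendritic-like cluster was also led by mast cell genes.

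All 7 genes were named in every group. From the network list the 3 genes with the smallest adjusted p in each direction were named for 3 comparisons, and for each of the 7 genes the 3 genes most like it by Pearson's r. Some results these rules would name are not reported here. The genes, lists and rules were chosen with earlier results of these data known. Alternatives were another pseudocount (0.1), other filters (none, 10 FPKM), TMM (edgeR 4.0.16) and quantile scaling, Rn45s left out, only the 2 groups compared, a replicate block, each library left out, other clustering resolutions (0.5, 2), doublets kept, and thinning to 1000 UMIs.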

Additional observations from a re-analysis of the deposited data

How the results depend on the processing

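Of the 16 called differences of the 7 genes, 268 of 285 alternative values kept direction and call, 16 kept direction only and 1 changed sign. Of the 26 differences not called, 32 of 465 values were called under an alternative and 1 more was called with the other sign. The sign change of a called difference came with quantile normalization, for Six2 from fresh to proliferating SMMC (0.18). The call with the other sign came with it too, for Eya4 between fresh SMMC and MuSC (-0.79). Some differences that were not called also changed sign without a call, with TMM scaling as well. For Six4 in proliferating SMMC against MuSC, 0.34 became -0.16 with TMM scaling and -0.05 with quantile normalization. The cause was not tested. With a filter at 10 FPKM only Pax7 and Eya1 were tested, and the counts of genes called were 2 for fresh SMMC against MuSC, 0 for proliferating against fresh SMMC and 0 for differentiating against fresh SMMC; over all genes 5233, 6030 and 5911 were called, against 7906, 9061 and 8992. From proliferating to differentiating SMMC the count of 0 became 1 with a pseudocount of 0.1, 1 with no filter, 1 with only these groups fitted and 2 with quantile normalization. Differentiating against fresh SMMC gave 1 with quantile normalization. Against MuSC differentiating SMMC gave 5 with TMM and 5 with quantile scaling, and MuSC had the highest mean for 5 genes with either, against 3 as deposited. Leaving out 1 library in turn gave 4 to 5, 2 to 6, 0 to 2, 1 to 3, 2 to 3 and 2 to 3 genes for the comparisons in the order used above; with 1 MuSC library left, it is assumed to vary like the other groups. For the network list, tried under these alternatives after the data were seen, every count stayed within 1.5 times, and 540 of 545 values of its named called genes kept direction and call.

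Log2 ratios moved with a pseudocount of 0.1 to -1.09 for Pax3 over Pax7 in fresh SMMC, 3.07, 3.795 and 2.38 for Six4 over Six5 in MuSC, proliferating and differentiating SMMC, and 2.26 and -1.06 for Eya1 over Eya4 in MuSC and fresh SMMC. In single cells, thinning gave 23.3 CPM for Eya1 in muscle stem cell-like and 9.95 for Six2 in tenocyte-like cells, and 1 library alone gave 29.9 to 30.4 for Eya1, 13.1 to 14.1 for Six2 and 22.8 to 86.7 for Pax7.

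Same-numbered libraries were not closer than others: deviations of 15 same-numbered pairs correlated at -0.128 to 0.142, those of 30 others at -0.263 to 0.288. Deviations from a group mean cancel within the group, so these pairs are not independent. Whether the numbers mark shared animals or preparations cannot be told from them. With the number as a replicate block the counts of genes called were 5, 5, 0, 2, 2 and 2, Pax7 was called from fresh to proliferating SMMC (limma adjusted p = 0.03939), and Six2 was not called in proliferating SMMC against MuSC (limma adjusted p = 0.05615).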
